A study of Homo sapiens with 2 samples.

Results

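The metallothionein genes and a set of zinc-handling genes were followed in the RNA of MCF10a-Snail-ER cells, as counted in 1 Nanopore library and 1 Illumina library. The 10 genes are MT2A, 6 MT1 genes (MT1A, MT1E, MT1F, MT1G, MT1M and MT1X), the zinc-sensing transcription factor MTF1 and the zinc carriers SLC30A1 and SLC39A7. They were found by matching the 58735 Ensembl identifiers of the count tables to GENCODE release 44 symbols, and all 10 were present in both tables. The set was chosen by symbol, but with the counts of both libraries in view: MT2A was known to have the highest Nanopore count and SLC39A7 to have Illumina counts and no Nanopore count. The values of the 10 genes in the 2 libraries are therefore a description and were not tested.

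MCF10a is a non-tumorigenic human mammary epithelial line. The derivative used here stably carries a fusion of the estrogen receptor with Snail, a transcriptional repressor that silences epithelial genes. Both libraries came from cells of this derivative kept for 1 day with 100 nM tamoxifen, which activates the fusion and sets off an epithelial-to-mesenchymal transition, in a medium that held horse serum, EGF, hydrocortisone, cholera toxin and insulin. One library was made with a direct RNA kit, in which native polyadenylated strands are read on a MinION, and the other with a stranded Illumina mRNA kit. The RNA of the 2 is described as matched. There was no untreated library, no parental line and no zinc or metal treatment, so the only comparison is between the 2 libraries, and no value has a replicate.

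Metallothioneins are very small proteins in which cysteines bind zinc, copper or cadmium, and they buffer these metals in the cell. Their genes are switched on by MTF1, a zinc-finger protein that binds short metal response elements when zinc rises, and MT2A also responds to glucocorticoids. Zinc leaves the cytosol through SLC30A family carriers, of which SLC30A1 sits in the plasma membrane and is itself an MTF1 target, and enters it through SLC39A family carriers, of which SLC39A7 releases zinc from the endoplasmic reticulum.

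The coding sequences show how alike the paralogs are. This bears on every metallothionein count below, because a read can be placed between paralogs only where they differ. Each of the 7 metallothionein genes of the set codes for 61 residues, 20 of them from cysteine codons, in 186 bases including the stop. These bases are a part of transcripts that run from 396 bases (MT1A) to 704 bases (MT1E). MT2A is printed in lower case, and in the other 5 capitals mark the bases that differ from it in a pairwise alignment. MT1E and MT1X are the abundant MT1 genes, MT1F and MT1M had Nanopore counts and few Illumina counts, and MT1G is the member nearest to MT2A. Sequences are from GENCODE release 44 transcripts (hg38).
MT2A: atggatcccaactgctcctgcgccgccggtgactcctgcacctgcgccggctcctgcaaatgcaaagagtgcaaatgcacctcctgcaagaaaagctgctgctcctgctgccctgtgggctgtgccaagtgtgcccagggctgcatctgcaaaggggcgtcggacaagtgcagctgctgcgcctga
MT1E: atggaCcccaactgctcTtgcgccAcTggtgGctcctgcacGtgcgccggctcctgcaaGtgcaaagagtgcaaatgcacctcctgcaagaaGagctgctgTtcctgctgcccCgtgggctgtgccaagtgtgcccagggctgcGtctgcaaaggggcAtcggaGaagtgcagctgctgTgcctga
MT1X: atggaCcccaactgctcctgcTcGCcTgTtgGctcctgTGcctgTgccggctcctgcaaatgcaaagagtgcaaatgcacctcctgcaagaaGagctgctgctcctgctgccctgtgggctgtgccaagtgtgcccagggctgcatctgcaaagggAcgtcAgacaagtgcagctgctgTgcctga
MT1F: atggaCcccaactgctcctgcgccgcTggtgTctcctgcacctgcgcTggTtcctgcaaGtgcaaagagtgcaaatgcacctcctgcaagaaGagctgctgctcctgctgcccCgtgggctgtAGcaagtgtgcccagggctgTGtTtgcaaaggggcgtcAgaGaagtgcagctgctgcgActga
MT1M: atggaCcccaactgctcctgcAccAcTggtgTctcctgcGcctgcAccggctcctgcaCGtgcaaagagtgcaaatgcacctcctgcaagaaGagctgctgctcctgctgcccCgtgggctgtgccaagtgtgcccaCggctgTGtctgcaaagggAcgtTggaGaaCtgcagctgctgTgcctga
MT1G: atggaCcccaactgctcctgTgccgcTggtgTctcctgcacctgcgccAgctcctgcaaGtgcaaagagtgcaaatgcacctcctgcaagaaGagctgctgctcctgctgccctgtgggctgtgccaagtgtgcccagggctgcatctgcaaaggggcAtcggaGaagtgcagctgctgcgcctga

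MT1E and MT1X each differed from MT2A at 14 of 186 bases, MT1F at 16, MT1M at 19 and MT1G at 9. Over the 21 pairs of the 7 genes the identity of the coding sequences ranged from 88.7% (MT1F and MT1X) to 95.2% (MT1G and MT2A). Of the 21 annotated metallothionein genes and pseudogenes, 15 shared 1 or more words of 50 bases with an annotated transcript of another, non-overlapping gene. For words of 100 bases the number was 2. Neighbours in the chromosome 16 cluster count as other genes here. The share of a gene's 50-base words found in such other genes was 4.48% for MT2A, 7.10% for MT1E and 3.73% for MT1X. It was 18.2% for MT1M, 16.4% for MT1G, 5.76% for MT1A and 1.24% for MT1F. SLC30A1 and SLC39A7 had no such word, and MTF1 had 0.894%.

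The promoters of MT2A and MT1X, the 2 abundant members with a RefSeq window, are shown for their metal response elements. The core searched was TGCACNC or TGCGCNC on both strands, and capitals mark each match. The windows run from 250 bases before to 50 after the annotated start (GRCh38.p14, plus strand), at chr16:56608334-56608633 for MT2A and chr16:56682220-56682519 for MT1X.
MT2A: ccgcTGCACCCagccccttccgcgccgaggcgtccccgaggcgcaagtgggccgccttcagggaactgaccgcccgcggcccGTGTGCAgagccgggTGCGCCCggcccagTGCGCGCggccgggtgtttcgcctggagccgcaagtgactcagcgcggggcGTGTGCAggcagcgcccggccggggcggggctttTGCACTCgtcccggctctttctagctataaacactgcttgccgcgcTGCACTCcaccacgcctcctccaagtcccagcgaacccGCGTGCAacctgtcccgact
MT1X: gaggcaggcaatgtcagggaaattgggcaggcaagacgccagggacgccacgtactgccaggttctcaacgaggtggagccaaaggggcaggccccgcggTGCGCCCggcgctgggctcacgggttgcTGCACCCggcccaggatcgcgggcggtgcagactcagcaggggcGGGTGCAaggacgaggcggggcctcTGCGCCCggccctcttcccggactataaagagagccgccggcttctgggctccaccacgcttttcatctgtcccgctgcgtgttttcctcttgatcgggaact

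MT2A held 8 matches, none overlapping another, and 0.0199% of the 35116 RefSeq promoter windows held at least as many. MT1X held 4, and 0.601% of windows held at least that many. A single match or more was found in 29.6% of windows. SLC30A1, the zinc exporter, had 2 matches, and 8.60% of windows held at least that many. MTF1 and SLC39A7 had none in their windows. Windows for 5 of the 10 genes were matched by symbol. MT1A, MT1E, MT1F, MT1G and MT1M were not.

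The count tables summed to 403235 (Nanopore) and 191741714 (Illumina). Levels are given as CPM, the count per 1000000 counts of the library, so that 1 count stood for 2.48 CPM by Nanopore and 0.00522 CPM by Illumina. Intervals below are exact 95% Poisson intervals for a level and exact 95% binomial (Clopper-Pearson) intervals for a ratio or share. They cover counting error only, since amplified reads are not independent molecules. Of the markers of basal mammary epithelium, all 6 (KRT5, KRT6A, KRT14, KRT17, TP63 and LAMB3) had counts in both libraries. The 7 markers of immune, endothelial, fibroblast and red blood cells had none by Nanopore and at most 5.07 CPM by Illumina. Of the 4 luminal markers, KRT8 and KRT18 were above 200 CPM in each library, and KRT19 and EPCAM were at most 7.44 CPM.

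MT2A, the main inducible metallothionein of most tissues, was the most abundant gene of the whole Nanopore library and ranked 7 by Illumina counts. MT2A (ENSG00000125148, chromosome 16, 56608584 to 56609497, hg38) had 6034 Nanopore counts and 1155661 Illumina counts. Its Nanopore level was 14964 CPM (14589 to 15346), and its Illumina level was 6027 CPM (6016 to 6038). In such bulk RNA, more cells with the transcript and more of it per cell cannot be told apart. The ratio of the CPM values was 2.48 (2.42 to 2.55).

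Fragmented libraries yield more reads from longer transcripts, and the direction for MT2A depended on whether Illumina counts were divided by length. The log2 ratio of Nanopore over Illumina, with 1 CPM added to each, was 1.31 in CPM. It was 1.40 with TMM scaling and 1.44 with median-ratio scaling. With Illumina counts divided by length (TPM, the length-scaled share of the library), it was 0.31 by mean transcript length, 598 bases, and −0.26 by union exonic length, 914 bases. By the length of the canonical transcript, 401 bases, it was −0.64. MT2A ranked 3 by TPM of mean transcript length and 5 by that of union exonic length, so it was among the most abundant genes in both libraries under each of these scales.

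**Figure D1:**
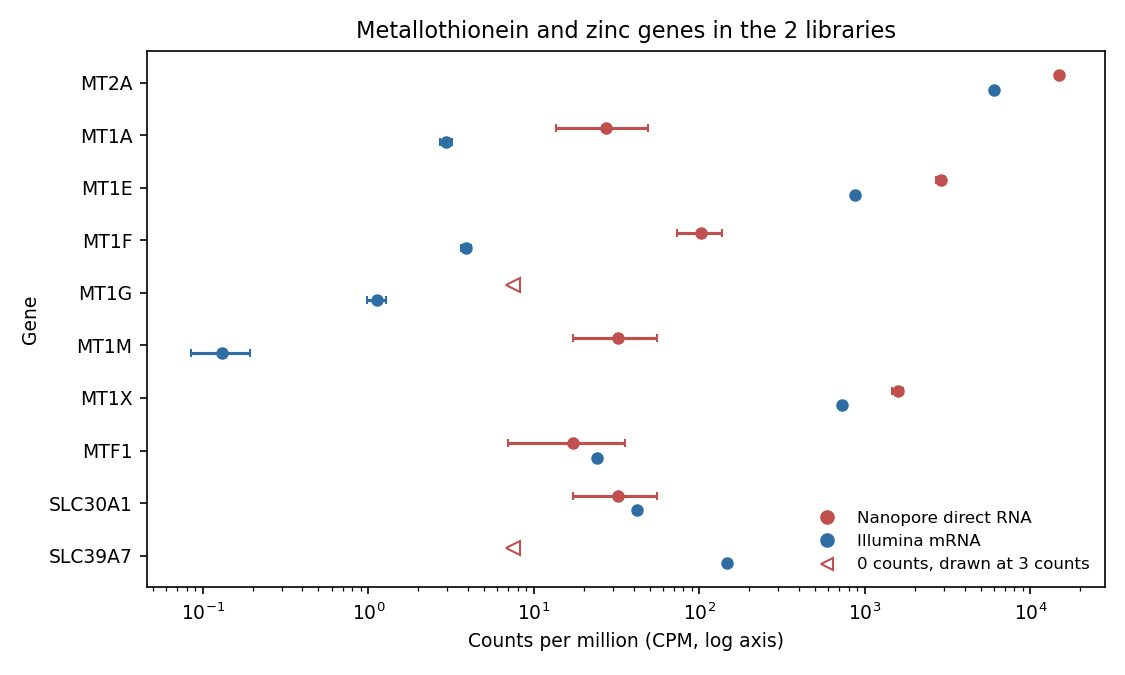
Level of the 10 genes in CPM (log axis) in the Nanopore library (red) and the Illumina library (blue), with exact 95% Poisson intervals; open triangles mark genes with 0 Nanopore counts, drawn at the level of 3 counts. The 3 abundant metallothioneins MT2A, MT1E and MT1X lie to the right in both libraries, MT1A, MT1F and MT1M are higher by Nanopore, and SLC39A7 has Illumina counts alone.

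The 3 genes whose levels lay nearest to those of MT2A, by Euclidean distance in log2(CPM + 1) over the 2 libraries, were the mitochondrially encoded oxidase subunits MT-CO3, MT-CO1 and MT-CO2, at distances of 0.60, 0.69 and 0.94. Despite the like symbols they are no metallothioneins. This measure rests on 2 libraries.

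MT1E and MT1X were the other abundant metallothioneins. MT1E (ENSG00000169715, chromosome 16, 56625475 to 56627112) had 1156 and 168178 counts, with a Nanopore level of 2867 CPM (2704 to 3037), an Illumina level of 877 CPM and a ratio of 3.27 (3.08 to 3.46). MT1X (ENSG00000187193, chromosome 16, 56682470 to 56684196) had 638 and 139496 counts, with a Nanopore level of 1582 CPM (1462 to 1710), an Illumina level of 728 CPM and a ratio of 2.17 (2.01 to 2.35). In CPM the ratio of MT1E was thus above that of MT2A and that of MT1X below it, each by more than counting error. For MT1X this order depended on length. Its log2 ratio was above that of MT2A by union length (0.47 and −0.26) and by mean length (0.54 and 0.31). By canonical length it was below (−0.82 and −0.64).

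The log2 ratio of MT1E fell from 1.71 in CPM to between 0.34 and 0.69 under the 3 length scalings and kept its sign. That of MT1X was 1.12 in CPM, 0.47 by union exonic length and −0.82 by canonical transcript length. MT1X shares 321 exonic bases with the lncRNA gene ENSG00000259827 on the same strand (56682470 to 56687807), which had 639 Nanopore and 75203 Illumina counts. The Nanopore counts of the 2 overlapping genes thus differed by 1, while the Illumina count of the lncRNA gene was 53.9% of that of MT1X. The tables do not show whether the same reads were counted for both.

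Among the metallothioneins of the set, the minor MT1 genes differed most between libraries. MT1F (ENSG00000198417, chromosome 16, 56657731 to 56660698) had 41 Nanopore and 746 Illumina counts, 101.7 CPM (72.97 to 137.9) against 3.89 CPM, a ratio of 26.1 (18.6 to 35.8). MT1M (ENSG00000205364, chromosome 16, 56632659 to 56633981) had 13 and 25 counts, 32.2 CPM (17.2 to 55.1) against 0.130 CPM, a ratio of 247 (116 to 502). MT1A (ENSG00000205362, chromosome 16, 56638666 to 56640087) had 11 and 565 counts, 27.3 CPM (13.6 to 48.8) against 2.95 CPM, a ratio of 9.26 (4.60 to 16.7). All 3 were higher by Nanopore in CPM and under each scaling tried. Each was under 5 CPM by Illumina and reached a mean of 5 CPM through Nanopore, so nothing is read from this direction. Under the length scalings the log2 ratio was at least 2.76 for MT1F, 4.30 for MT1M and 0.42 for MT1A, against 4.39, 4.88 and 2.84 in CPM. A pseudocount of 5 CPM lowered that of MT1M to 2.86.

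MT1G (ENSG00000125144, chromosome 16, 56666730 to 56668065), the member whose coding sequence is nearest to MT2A, had no Nanopore count and 215 Illumina counts, 1.12 CPM. By the exact interval a count of 0 allows up to 9.15 CPM by Nanopore, and a difference could not be detected at this depth.

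Levels of different genes can be ordered by Nanopore CPM, where a strand gives 1 read whatever its length, and by Illumina TPM. By Nanopore the order was MT2A, MT1E, MT1X and MT1F, each separated from the next by more than its interval. MT1M and SLC30A1 (32.2 CPM each), MT1A (27.3 CPM) and MTF1 (17.4 CPM) followed with overlapping intervals, and MT1G and SLC39A7 were at 0. By Illumina TPM of mean transcript length the first 3 were the same, at 12103 for MT2A, 1773 for MT1E and 1086 for MT1X. SLC39A7 (72.5 TPM) came next, followed by MT1A (8.93), SLC30A1 (8.55), MTF1 (6.88), MT1F (6.84), MT1G (3.08) and MT1M (0.497).

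**Figure D2:**
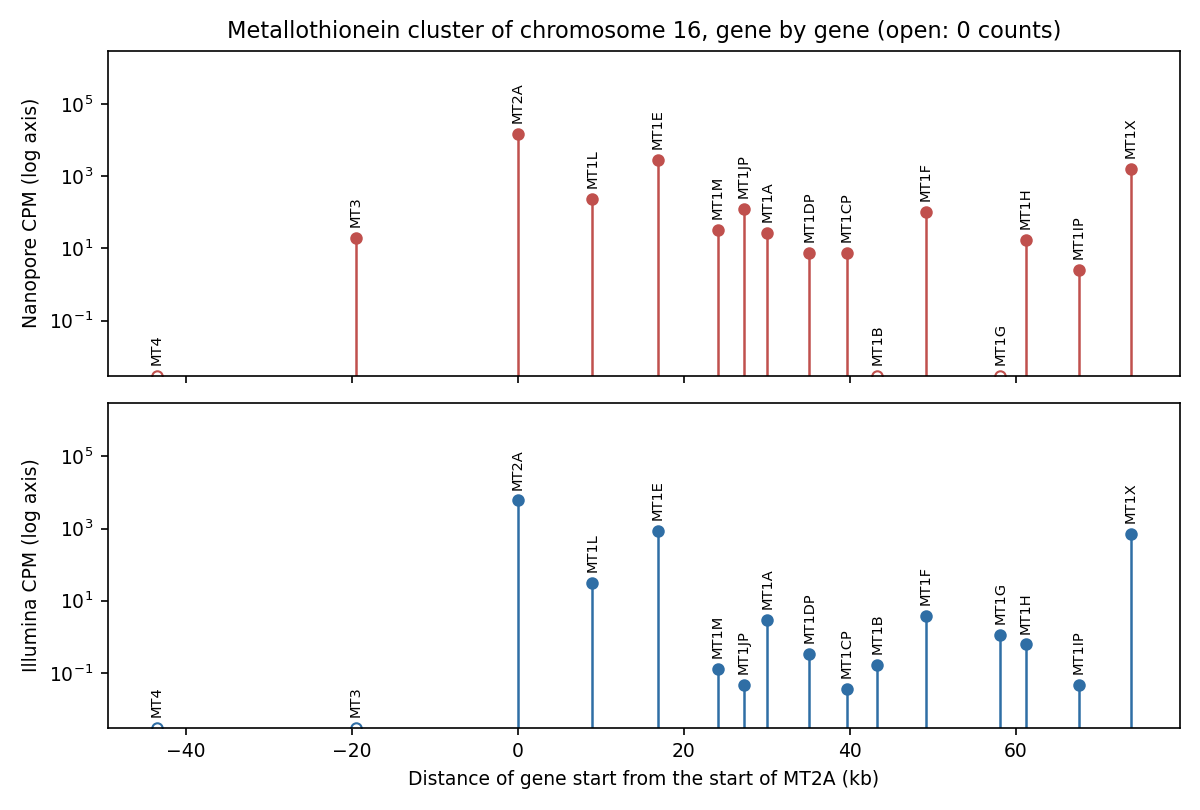
CPM (log axes) of each annotated metallothionein gene of the chromosome 16 cluster by distance of its start from that of MT2A in kb, in the Nanopore library (top) and the Illumina library (bottom); open circles are genes with 0 counts. MT2A, MT1E and MT1X stand above the rest in both panels, and the genes between MT1E and MT1X stand higher by Nanopore, except MT1B and MT1G, which are at 0 there. A single Nanopore count is 2.48 CPM, above the Illumina level of MT1M, MT1JP, MT1DP, MT1CP, MT1H and MT1IP. These genes had to stand higher by Nanopore once counted there.

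Over the family as a whole, the 21 annotated metallothionein genes, 12 protein-coding and 9 pseudogenes, held 8089 Nanopore counts, 2.01% of that library (1.96 to 2.05%). They held 1473011 Illumina counts, 0.768% of that library (0.767 to 0.769%), a ratio of 2.61 (2.55 to 2.67). By TPM the Illumina share was 1.53% for mean transcript length and 2.19% for union exonic length, so its direction against Nanopore turned with the choice of length.

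How the family's counts were divided does not depend on the library totals. Of the family's Nanopore counts MT2A took 74.6% (73.6 to 75.5%), and of its Illumina counts 78.5% (78.4 to 78.5%). MT1E held 14.3% (13.5 to 15.1%) against 11.4% (11.4 to 11.5%), and MT1X 7.89% (7.31 to 8.50%) against 9.47% (9.42 to 9.52%). With Illumina counts divided by union, mean or canonical length, MT2A took 81.5%, 79.4% or 82.3% of the family, above its Nanopore share each time, and MT1E took 10.3%, 11.6% or 6.44%, below its Nanopore share each time. For MT1X the direction turned, since its Illumina share was 5.21%, 7.12% or 9.87%. In counts the 3 genes together took 96.8% of the family by Nanopore and 99.3% by Illumina.

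The other 18 genes held 261 counts, 3.23% of the family by Nanopore (2.85 to 3.64%), and 9676 counts, 0.657% by Illumina (0.644 to 0.670%). In counts their combined share was 4.91 times as large by Nanopore, but with Illumina shares by union, mean or canonical length (2.94%, 1.91% or 1.35%) it was 1.10, 1.69 or 2.39 times as large. Of the 18, 13 had a larger share of counts by Nanopore, 4 a smaller one and MT4 had no count in either library. By union or mean length 11 had a larger share by Nanopore and 6 a smaller one. A single Nanopore count was already 0.0124% of the family. A gene with a smaller Illumina share than that had to be higher by Nanopore once counted there. Nothing is therefore read from these numbers of genes. The pseudogenes' share of the family was 2.21% in the Nanopore library (1.90 to 2.56%), while they took 0.541% of the Illumina counts (0.529 to 0.553%). Divided by length, their Illumina share was 2.78% by union length, above that of Nanopore, and 1.77% or 1.23% by mean or canonical length, below it.

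Among genes of the family outside the set, 3 reached 20 CPM in a library. MT1JP and MT2P1 reached it by Nanopore alone, so they had to be higher there, and nothing is read from their direction. MT1L, a transcribed pseudogene between MT2A and MT1E, had 94 Nanopore and 6082 Illumina counts, 233 against 31.7 CPM, a ratio of 7.35 (5.93 to 9.01). MT1JP, another transcribed pseudogene, had 49 and 9 counts, 122 against 0.0469 CPM, a ratio of 2589 (1258 to 5995). MT2P1, a processed pseudogene on chromosome 4, had 21 and 1336 counts, 52.1 against 6.97 CPM, a ratio of 7.47 (4.61 to 11.5). Under length scaling the excess by Nanopore of MT1L and MT2P1 was lost: the log2 ratio by union, mean and canonical length was −0.98, 0.19 and −0.18 for MT1L and −0.97, 0.18 and −0.18 for MT2P1. That of MT1JP was at least 6.19. MT3, the neuronal metallothionein, named here after its values were seen, had 8 Nanopore counts, 19.8 CPM, and none by Illumina. Its observed Nanopore level was 1268 times the level of 3 Illumina counts, and the exact interval of the ratio reached down to 812.

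The sequences of these minor genes were compared with the 3 abundant ones. MT1JP aligned over its whole 186 bases to MT1E with 94.1% identity, and its Nanopore count was 4.24% of that of MT1E, against 0.00535% by Illumina. MT1L aligned to MT1E with 94.6% identity and had 8.13% of its Nanopore count, against 3.62% by Illumina in counts and from 11.5% (mean length) to 20.5% (union length) after division by length. MT1M aligned to MT1E over 354 bases with 91.2% identity and had 1.12% of its Nanopore count, against 0.0149% by Illumina. MT1F aligned to MT1E over 412 bases with 81.1% identity and had 3.55% of its Nanopore count, against 0.444% by Illumina. MT2P1 was 97.3% identical to MT2A over 183 bases and had 0.348% of its Nanopore count, against 0.116% by Illumina in counts and 0.577%, 0.378% or 0.253% by union, mean or canonical length. For MT1JP, MT1M and MT1F the Illumina percentage stayed below that of Nanopore under each length. All 3 were under 5 CPM by Illumina and reached a mean of 5 CPM through Nanopore, so nothing is read from this direction. Other minor genes went the other way in counts. MT1P3 was 96.6% identical to MT1E over 177 bases. With 1 Nanopore count it had 0.0865% of that of MT1E, against 0.224% by Illumina. MT1G, MT1B and MT1P1, 82.1%, 85.1% and 91.7% identical to MT1X, MT1E and MT1X, had no Nanopore count. Their Illumina percentages were 0.154%, 0.0190% and 0.0108%. The part of this likeness in where reads of each library were counted was not tested.

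MTF1 and SLC30A1, the activator and its zinc-exporting target, lay close together in the 2 libraries. MTF1 (ENSG00000188786, chromosome 1, 37809574 to 37859592) had 7 Nanopore counts, 17.4 CPM (6.98 to 35.8), and 4586 Illumina counts, 23.9 CPM, a ratio of 0.726 (0.292 to 1.497). SLC30A1 (ENSG00000170385, chromosome 1, 211571568 to 211579161) had 13 Nanopore counts, 32.2 CPM (17.2 to 55.1), and 8049 Illumina counts, 42.0 CPM, a ratio of 0.768 (0.409 to 1.31). Both intervals include 1, and a difference in CPM could not be detected at this depth. Under the 3 length scalings both log2 ratios were above 0, from 1.01 to 1.70 for MTF1 and from 0.71 to 1.80 for SLC30A1. The longest exonic sequences of the set are those of MTF1, 7989 bases, and SLC30A1, 5893 bases.

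**Figure D3:**
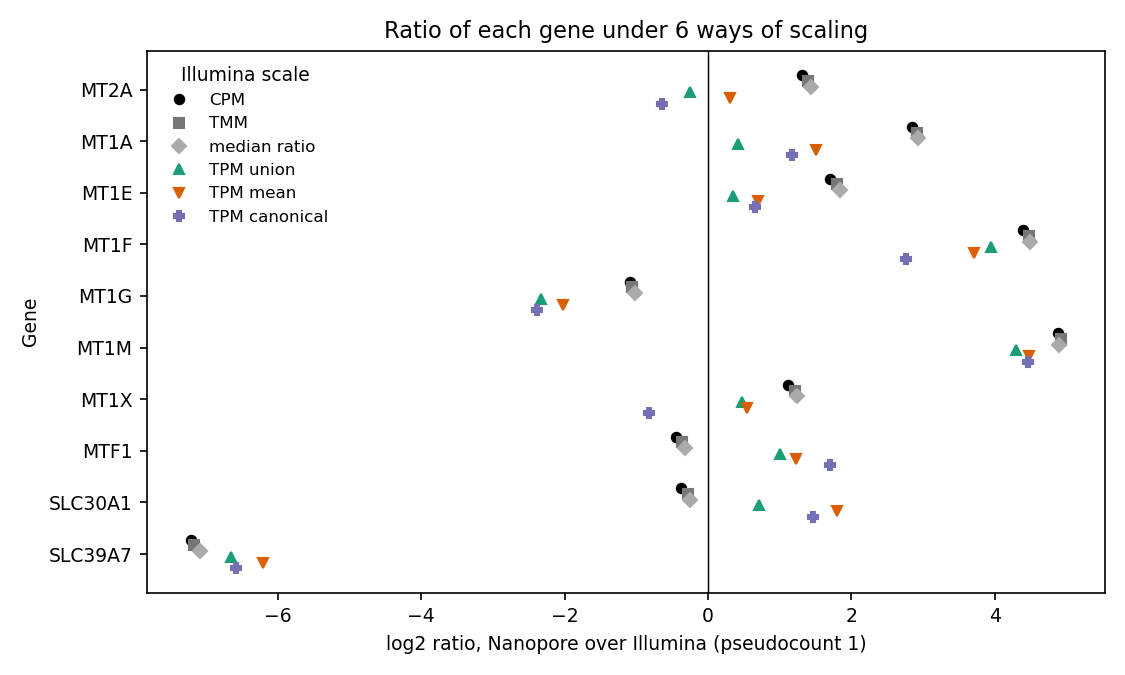
Log2 ratio of Nanopore over Illumina with a pseudocount of 1 for each gene, with the Illumina library in CPM, after TMM or median-ratio scaling of both libraries, and as TPM by union exonic, mean transcript or canonical transcript length. MT1F and MT1M stay to the right and SLC39A7 to the left under all 6, while MT2A, MT1X, MTF1 and SLC30A1 have points on both sides of 0.

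SLC39A7 (ENSG00000112473, chromosome 6, 33200305 to 33204439) had 28294 Illumina counts, 147.6 CPM (145.8 to 149.3), and no Nanopore count. Its Illumina level was 19.8 times the level of 3 Nanopore counts. The exact interval allowed a ratio of Nanopore over Illumina of up to 0.0620. Its log2 ratio is set by the pseudocount: it was −7.21 with 1 CPM added, −10.53 with 0.1 CPM and −4.93 with 5 CPM. Among the 12414 genes whose mean over the 2 libraries reached 5 CPM it ranked 1 from the lowest with the first 2 and 2 with the last. Its neighbour RXRB, a retinoid X receptor gene on the opposite strand that shares 361 exonic bases with it, also had no Nanopore count, with 7990 by Illumina.

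SLC39A7 lies at the edge of the major histocompatibility region, for which hg38 carries alternate contigs. Its canonical transcript aligned without a difference to 5 alternate contigs of chromosome 6. A window of 1000 kb to each side, chosen after the values were seen, held 23 genes of at least 20 Illumina CPM, SLC39A7 included. Of these, 19 had a copy on 1 to 7 alternate contigs, with a median log2 ratio of −3.67 (−7.21 to −0.94), and 5 of the 19 had no Nanopore count. The 4 without a copy had a median of −1.07 (−1.48 to −0.19), and each had Nanopore counts. All 23 were kept by their Illumina level alone, which favours genes that are lower by Nanopore. SLC39A7, known beforehand to have no Nanopore count, is among the 19 and among the 5. The same values over all genes of at least 20 Illumina CPM were not computed. RPS18, a ribosomal protein gene with copies on 4 contigs, had 176 Nanopore counts, 436 CPM, against 2339 CPM by Illumina. For the other 9 genes of the set no such copy was found. Whether such copies were in the index used for the Nanopore reads, and their part in the count of 0, was not tested.

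**Figure D4:**
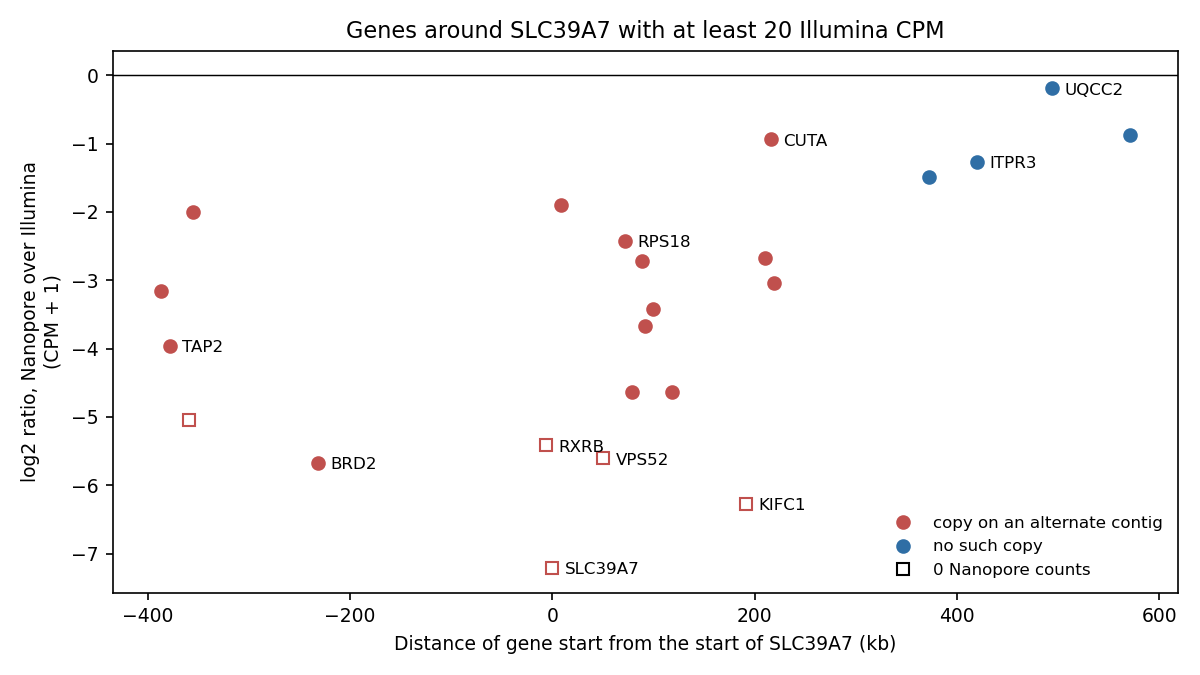
Log2 ratio of Nanopore over Illumina (CPM + 1) of the 23 genes around SLC39A7 with at least 20 Illumina CPM, by distance of their start from that of SLC39A7 in kb; red marks genes whose transcript also aligned to an alternate contig, blue the others, open squares genes with 0 Nanopore counts. The 4 genes without a copy lie at the right end, between −1.48 and −0.19, and SLC39A7 is the lowest point.

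Of all genes whose mean over the 2 libraries reached 5 CPM, 12414 in number, 12.9% were at least 4-fold higher by Nanopore and 8.14% at least 4-fold higher by Illumina. At least 2-fold, the shares were 19.2% and 30.2%. The median log2 ratio was −0.42. Of the 10 zinc genes, 9 passed this filter, all but MT1G. Of these, 3 were past 4-fold by Nanopore (MT1A, MT1F and MT1M) and 1 by Illumina (SLC39A7). These 4 were under 5 CPM in the other library and passed through the library in which they were high, so they had to differ, and nothing is read from their number. MT1A was no longer past 4-fold under any of the 3 length scalings. In CPM MT2A, MT1E and MT1X were past 2-fold by Nanopore, and MTF1 and SLC30A1 were within 2-fold. Under the 3 length scalings none of MT2A, MT1E and MT1X was past 2-fold. MTF1 was then past 2-fold by Nanopore under each, and SLC30A1 by mean and canonical length.

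**Figure D5:**
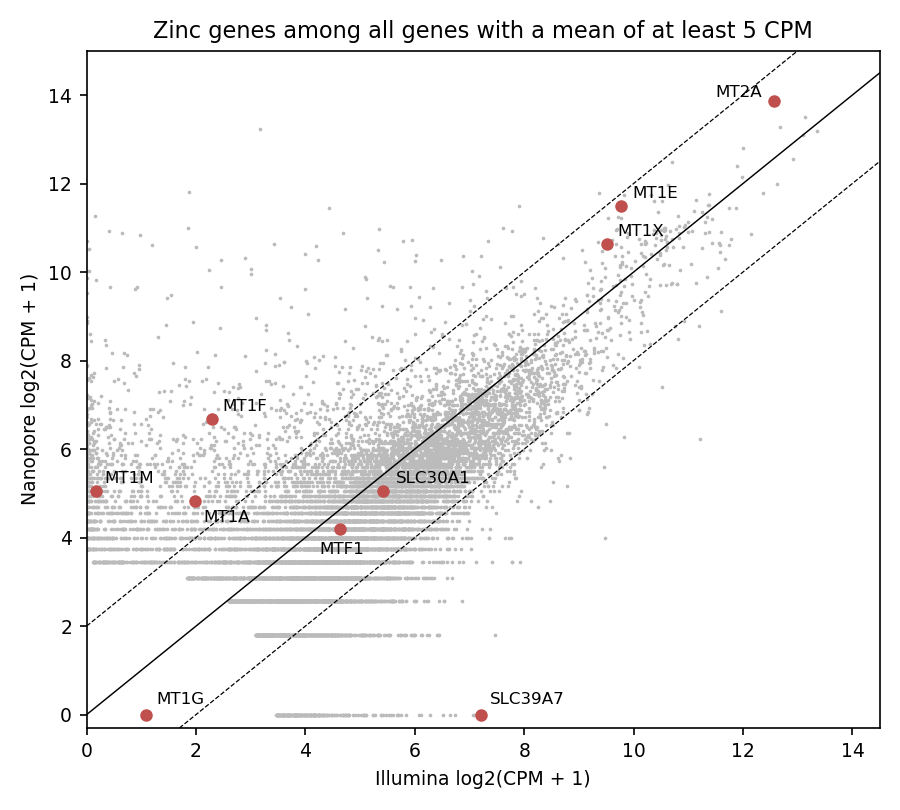
Log2(CPM + 1) by Nanopore against Illumina for all genes past the 5 CPM filter on the mean (grey) and the 10 zinc genes (red; MT1G did not pass it); the solid line marks equal values and the dashed lines 4-fold differences. MT1A, MT1F and MT1M lie above the upper dashed line, SLC39A7 below the lower one, and MTF1 and SLC30A1 near the solid line.

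The other zinc carriers gave a view of the pathway beside the 2 carriers of the set. Of 24 genes (SLC30A1 to SLC30A10 and SLC39A1 to SLC39A14), 17 had Nanopore counts and 21 had Illumina counts. Of the 22 outside the set, 15 passed the filter. None of these 15 was past 4-fold in either direction, 2 were past 2-fold by Nanopore, 3 by Illumina, and 10 were within 2-fold. Their median log2 ratio was −0.36, near the −0.42 of all genes. These CPM ratios turn with length for many carriers: 5 of the 15 were above 0 in CPM, against 11, 8 and 13 by union, mean and canonical length, and 2, 2 and 3 were then past 4-fold by Nanopore.

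The importers of the SLC39A family included the most abundant carrier by Illumina counts. SLC39A1, a plasma membrane importer, had 70 and 42705 counts, 173.6 against 222.7 CPM, a ratio of 0.779 (0.607 to 0.985). It shares 2061 exonic bases with ENSG00000285779, a protein-coding gene on the same strand with 152 and 41315 counts. SLC39A9 had 80 and 12901 counts, 198.4 against 67.3 CPM, a ratio of 2.95 (2.34 to 3.67). The start of SLC39A9 overlaps ERH on the opposite strand over 69 exonic bases, and ERH had 90 and 69518 counts. Under the length scalings SLC39A9 stayed higher by Nanopore, with log2 ratios from 2.48 to 3.30, and SLC39A1 lay between −0.04 and 0.27.

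SLC39A8, an importer of zinc and manganese, had 25 and 5049 counts, 62.0 against 26.3 CPM, a ratio of 2.35 (1.52 to 3.48). Its log2 ratio under the length scalings was 2.18 to 2.74. SLC39A10 had 8 and 8522 counts, a ratio of 0.446 (0.193 to 0.880), with log2 ratios of 0.18, −0.28 and 0.55 by union, mean and canonical length. For SLC39A6, SLC39A13, SLC39A14 and SLC39A4 the ratios were 0.738, 0.852, 1.15 and 1.42, with intervals that include 1. SLC39A7 was the only SLC39A gene above 20 CPM by Illumina with no Nanopore count.

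Among the exporters, SLC30A5, SLC30A6 and SLC30A7 serve the secretory pathway. SLC30A5 had 18 and 9920 counts, a ratio of 0.863 (0.511 to 1.36). SLC30A7 had 5 and 4248 counts, a ratio of 0.560 (0.182 to 1.31). SLC30A6 had 4 and 5243 counts, a ratio of 0.363 (0.0988 to 0.929), with log2 ratios of −0.43, −0.12 and 0.23 by union, mean and canonical length. SLC30A9 had 14 and 12450 counts, a ratio of 0.535 (0.292 to 0.897), with log2 ratios of 0.49, −0.02 and 1.04 by those lengths. SLC30A2, SLC30A8 and SLC30A10 had no count in either library.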

How the data were processed

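RNA of MCF10a-Snail-ER cells was measured in 1 Nanopore direct RNA library and 1 Illumina mRNA library, grouped by their titles. The authors deposited whole-number counts per Ensembl gene without normalization. Per the submitters' processing notes the build was hg38 and the tools were minimap2 2.11-r797, HISAT2 2.1.0 and featureCounts, with no role stated. The annotation, the strand setting and the treatment of reads that map to several places or overlap several genes are not given in the sources used here. Per the file headers, the Nanopore column carries a suffix that no label explains and that holds the letters talc, also the name of a program that corrects long RNA reads with short reads. Whether that was done is not given in the sources used here. If the Nanopore reads were corrected with Illumina reads before counting, the 2 libraries are not independent.

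Of 58735 identifiers, 58207 matched GENCODE release 44. CPM used library totals of 403235 and 191741714. Log2 ratios used a pseudocount of 1 CPM. With 1 library per platform no model was fitted and no p-value was computed. Genes were called past 4-fold at a mean of at least 5 CPM. The fold calls and intervals were checked on simulated data. TPM divided Illumina counts by GENCODE lengths. TMM came from edgeR 4.0.16, run on all genes of the count tables. Median ratios came from DESeq2 1.42.0, over the 5976 genes that reached 10 counts in both. A single transcript per gene was aligned to 261 alternate contigs with minimap2 2.31 (at least 80% aligned, at most 5% divergence). It was the canonical transcript, except for coding metallothionein genes. Paralogs were aligned with Biopython 1.88. For each coding metallothionein gene both alignments used the transcript whose coding length was nearest to that of MT2A.

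The genes and lists were chosen with earlier results of these data known. Named genes were the 10 members, other metallothionein genes and zinc carriers of at least 20 CPM in either library, genes overlapping a member with at least 10 counts, and the 3 genes nearest to MT2A. MT1IP was added to the metallothionein list after the tables were read. Alternatives were other scalings, pseudocounts of 0.1 and 5 CPM, other filters, a 2-fold limit and words of 100 bases. Division by canonical transcript length, the length scalings of family shares and of the other carriers, leaving out MT1X and a background of genes without overlap were chosen after seeing the data.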

Additional observations from a re-analysis of the deposited data

How the results depend on the processing

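No paired analysis was possible because each platform has 1 library, and for the same reason no replicate could be left out. Each of the 10 log2 ratios was recomputed under 8 alternatives. Of these 80 values 46 stayed within the counting interval of the reported one on the same log2 scale, 25 moved beyond it with the same sign and 9 changed sign. All 9 came from dividing Illumina counts by length, which favours short transcripts. By union exonic length MT2A became −0.26, MTF1 1.01 and SLC30A1 0.71. By mean transcript length MTF1 became 1.22 and SLC30A1 1.80. By canonical transcript length MT2A became −0.64, MT1X −0.82, MTF1 1.70 and SLC30A1 1.47. The log2 ratio of the metallothionein total, 1.38, was 1.47 with TMM, 1.51 with median ratios, 1.45 without mitochondrial genes in the totals, 0.40 by mean transcript length, −0.13 by union exonic length and −0.50 by canonical length. It was 1.36 for the members alone and 1.41 without MT1X. The number of zinc genes past 4-fold by Nanopore, 3, became 1 with a mean of at least 20 CPM, where 7 genes were left, and 6 at 2-fold. It was 2 under each of the 3 length scalings, where MT1A was at 0.42, 1.51 and 1.17 by union, mean and canonical length. That by Illumina was 1 under each alternative. Over all genes, a pseudocount of 5 CPM lowered the 1597 genes past 4-fold by Nanopore to 1065 and the 1010 by Illumina to 449. The latter count was 659 by union exonic length, 553 by mean transcript length and 463 by canonical transcript length. Without a filter the counts were 2208 and 1599, and at 20 CPM 749 and 480. Among genes without an overlapping neighbour the shares were 3.92% and 10.0%. The count of metallothionein genes that share words with another, non-overlapping gene fell from 15 to 2 with words of 100 bases, where fewer words can match. Other scalings moved the median log2 ratio of all genes from −0.42 to between −0.34 (without mitochondrial genes) and 0.49 (canonical length). Nanopore depth limits values under 7.44 CPM.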

Other observations

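The remaining metallothionein genes had few counts. MT1H, a cluster gene whose RefSeq promoter window held 8 matches to the metal response core, as many as that of MT2A, had 7 Nanopore and 118 Illumina counts, 17.4 against 0.615 CPM. MT1XP1, a processed pseudogene on chromosome 1 that is 96.2% identical to MT1X over 186 bases, had 7 and 68 counts, 17.4 against 0.355 CPM. MT1P3, a processed pseudogene on chromosome 20, had 1 Nanopore and 376 Illumina counts, a ratio of 1.26 with an interval from 0.0319 to 7.09. MT1P1 had 0 and 15. MT1B, which like MT4 had no Nanopore count, had 32 Illumina counts. These genes were named after their values were seen.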
